A study of Mus musculus with 6 samples.

Results

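The genes described here encode the replication-dependent histones, the H1, H2A, H2B, H3 and H4 proteins that package newly copied DNA. They were measured in cultured mouse mast cells before and after a calcium stimulus. A gene was taken as a member when its array row carried exactly 1 symbol and that symbol was a Hist1h to Hist4h name or the current H1f, H2ac, H2bc, H3c or H4c form of one. This gave 29 genes among the 30099 genes with a symbol of their own: 5 of class H1, 10 H2A, 9 H2B, 3 H3 and 2 H4. By their older names 22 belong to the Hist1 cluster, 6 to Hist2 and 1 to Hist3. Membership rests on names, and whether the expression of each member depends on replication was not tested. The 29 genes came from 30 rows, because H4c2 had 2 rows and the brighter was kept. Current symbols were assigned to 27 members through RefSeq.

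The cells were bone marrow-derived mast cells (BMMCs) grown from the femur marrow of C57BL/6J mice, matured for 6 weeks in recombinant IL-3 and a supernatant holding stem cell factor. Naive cells spent 1 h in Tyrode's buffer, a calcium-containing salt solution. Ionomycin cells spent the same 1 h in that buffer with 1 µg/mL ionomycin, an ionophore that carries calcium ions across membranes. Both groups were then washed and kept for 3 h in growth medium, and RNA was taken 4 h after the stimulus began. Each group had 3 Affymetrix whole-transcript arrays, numbered 1, 2 and 3 in the titles. The labels do not say whether the numbered samples came from separate cultures or mice, so the p-values speak only for the scatter among these arrays, whose origin may be technical. All values are deposited log2 signals, in which a difference of 1 is a factor of 2.

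Replication-dependent histone genes sit together in clusters and are transcribed mainly while a cell copies its DNA. The factor NPAT activates them. Their mRNAs end in a stem-loop rather than a poly(A) tail, and stem-loop binding protein (SLBP) carries that end through processing, translation and decay. Their coding sequences are close copies of each other, so a row named for 1 gene can also take signal from its paralogs, and each value below is uncertain in that respect. Replacement histones such as H2A.Z are made outside S phase too, from polyadenylated mRNAs.

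Both replicate 1 arrays stood apart from the other 4. Naive replicate 1 correlated with the other naive arrays at Pearson's r of 0.985 and 0.984 across genes, against 0.997 between naive replicates 2 and 3. The matching values were 0.991 and 0.990 against 0.998 in the ionomycin group. Array medians lay between 5.88 and 6.03. All 10 mast cell markers listed, among them Kit and Fcer1a, were above background in the 6-array mean, background being the 95th percentile of 1580 chemosensory receptor genes (a log2 signal of 6.09). Of 39 measured markers of other marrow cell types, 31 were also above it.

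Promoters of the members shared short sequences that the choice of genes did not use. RefSeq promoter windows of assembly GRCm38.p6, 300 bases from 250 before to 50 after the annotated start, were found for 25 of the 29 members. Short motifs were searched on both strands, and a base could count in more than 1 match: the CCAAT box with the letters CCAAT, to which NF-Y binds, the TATA box with the letters TATAAA, and the octamer with the letters ATTTGCAT, to which the POU factor Oct-1 binds. The CCAAT box was present in 24 of 25 member promoters, against 37.4% of all 32851 promoters, and H4c2 was the member without it. The TATA box was present in 14 of 25, against 13.6% of all promoters. In H2ac12, H2ac15, H2ac18 and H4c1 its only match lay after the start. The only match of H2bc12 was the copy counted for H2ac12. The CCAAT matches of H2bc12 and H2ac12 were the same copies, as were those of H2bc1 and H2ac1. The octamer was present in 8 of 25, against 1.74% of all promoters. On the gene's own strand it was found in 5 of 7 H2B promoters (H2bc1, H2bc3, H2bc12, H2bc14 and H2bc18), against 0.877% of all promoters. The 3 H2A promoters holding it (H2ac1, H2ac12 and H2ac20) had it on the other strand, and for H2ac1 and H2ac12 it was the very copy counted for H2bc1 and H2bc12, whose windows overlap theirs head to head. A match is only a match of letters.

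The 200 bases before the start are shown, 5′ to 3′ on the gene's strand, for the H2B and the H4 member with the highest 6-array mean and for the members named for the size of their difference after ionomycin, where the promoter table has an entry. Capitals mark every CCAAT box, TATA box or octamer match on either strand.
H2bc1, chr13:23934157-23934356, minus strand: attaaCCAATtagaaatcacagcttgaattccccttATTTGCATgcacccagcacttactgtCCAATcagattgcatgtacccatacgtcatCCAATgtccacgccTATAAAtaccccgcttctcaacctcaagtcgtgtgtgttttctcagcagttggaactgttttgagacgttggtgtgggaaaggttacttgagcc
H2bc3, chr13:23746534-23746733, plus strand: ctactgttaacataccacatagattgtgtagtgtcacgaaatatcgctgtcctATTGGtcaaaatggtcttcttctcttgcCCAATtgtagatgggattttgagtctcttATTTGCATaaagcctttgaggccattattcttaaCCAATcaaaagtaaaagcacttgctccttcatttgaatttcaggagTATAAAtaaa
H2ac10, chr13:23533675-23533874, plus strand: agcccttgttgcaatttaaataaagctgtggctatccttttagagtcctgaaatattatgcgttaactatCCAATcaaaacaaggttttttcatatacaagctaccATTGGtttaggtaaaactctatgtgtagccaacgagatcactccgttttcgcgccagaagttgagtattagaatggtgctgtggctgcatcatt
H2ac15, chr13:21753913-21754112, minus strand: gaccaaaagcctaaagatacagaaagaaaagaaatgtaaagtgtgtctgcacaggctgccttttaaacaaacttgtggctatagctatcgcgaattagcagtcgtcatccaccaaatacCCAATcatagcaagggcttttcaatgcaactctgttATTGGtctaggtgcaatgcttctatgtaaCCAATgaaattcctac
H2ac20, chr3:96220881-96221080, minus strand: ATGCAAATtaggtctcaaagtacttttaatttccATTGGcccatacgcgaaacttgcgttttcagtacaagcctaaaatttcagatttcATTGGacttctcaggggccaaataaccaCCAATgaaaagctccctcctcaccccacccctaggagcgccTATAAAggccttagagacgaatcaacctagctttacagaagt
H2ac19, chr3:96240375-96240574, minus strand: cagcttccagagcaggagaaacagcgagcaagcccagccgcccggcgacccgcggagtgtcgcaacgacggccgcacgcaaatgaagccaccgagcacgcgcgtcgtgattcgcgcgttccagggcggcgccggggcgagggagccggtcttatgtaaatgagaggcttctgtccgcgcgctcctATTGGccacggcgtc
H1f2, chr13:23738607-23738806, plus strand: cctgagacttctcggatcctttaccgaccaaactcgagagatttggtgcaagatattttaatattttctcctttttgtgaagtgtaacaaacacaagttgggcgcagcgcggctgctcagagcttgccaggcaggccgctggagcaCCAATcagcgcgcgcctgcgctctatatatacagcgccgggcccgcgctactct
H1f3, chr13:23554832-23555031, plus strand: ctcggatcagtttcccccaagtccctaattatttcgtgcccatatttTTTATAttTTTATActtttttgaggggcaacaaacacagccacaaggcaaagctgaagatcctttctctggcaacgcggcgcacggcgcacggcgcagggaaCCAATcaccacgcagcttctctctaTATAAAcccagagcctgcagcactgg
H4c1, chr13:23761250-23761449, minus strand: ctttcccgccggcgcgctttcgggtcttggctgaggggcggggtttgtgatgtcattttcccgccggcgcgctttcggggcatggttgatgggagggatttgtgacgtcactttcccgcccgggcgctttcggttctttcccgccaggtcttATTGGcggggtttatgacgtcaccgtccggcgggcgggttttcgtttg
In H2bc1 the octamer began 164 bases before the start and in H2bc3 90 bases before it. H1f2, which carries no octamer, has a CCAAT box 54 bases before its start.

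Of the 29 members, 20 had a 6-array mean above background: 3 of 5 H1, 9 of 10 H2A, 8 of 9 H2B and 0 of the H3 and H4 members. The 9 below it had means between 4.46 and 5.31, and small differences there are weakly measured. H2bu1-ps is a transcribed pseudogene in RefSeq, and the row named Hist1h2aj carried no gene ID, a name that RefSeq lists for the pseudogene H2ac14. Hist1h2aj is kept under its array name. Log2 signals of different rows depend on their probes and are not ranked against each other.

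No replication-dependent histone gene passed the test between ionomycin and naive cells. By limma over all 6 arrays, with Benjamini-Hochberg adjustment over 30099 genes and a threshold of 0.05, 0 members were higher (0.289% of all genes were) and 0 were lower (0.0598% of all genes were). Before adjustment, limma gave p under 0.05 for 0 members higher and 1 lower, against 10.2% of all genes higher and 5.45% lower. Blocking on the replicate number left both limma counts at 0 (0.395% of all genes were higher and 0.11% lower), while unadjusted p-values under 0.05 were found for 8 members lower (9.42% of all genes) and 0 higher (16% of all genes). The smallest adjusted p among members in limma was 0.284 without the block and 0.0557 with it, both for H2bc21.

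Most differences lay below 0. The median difference, ionomycin minus naive, was -0.12 over the members and 0.05 over all genes, and without both replicate 1 arrays -0.12 and 0.04. It was below 0 for 21 of 29 members, against 35.4% of all genes. By class the median difference was 0.10 for H1, -0.17 for H2A, -0.12 for H2B, -0.30 for H3 and 0.03 for H4. The arrays were not alike in this: at replicate numbers 1, 2 and 3 the median difference was 0.02, -0.03 and -0.30, with 14, 18 and 25 members below 0. At all 3 numbers 12 members were lower (16.8% of all genes were), among them Hist1h2aj, H2ac10, H2ac15, H2ac20, H2bc18 and H2bc21. H1f6 and H3c7, both below background, were the 2 members higher at all 3 (35.8% of all genes were).

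**Figure D1:**
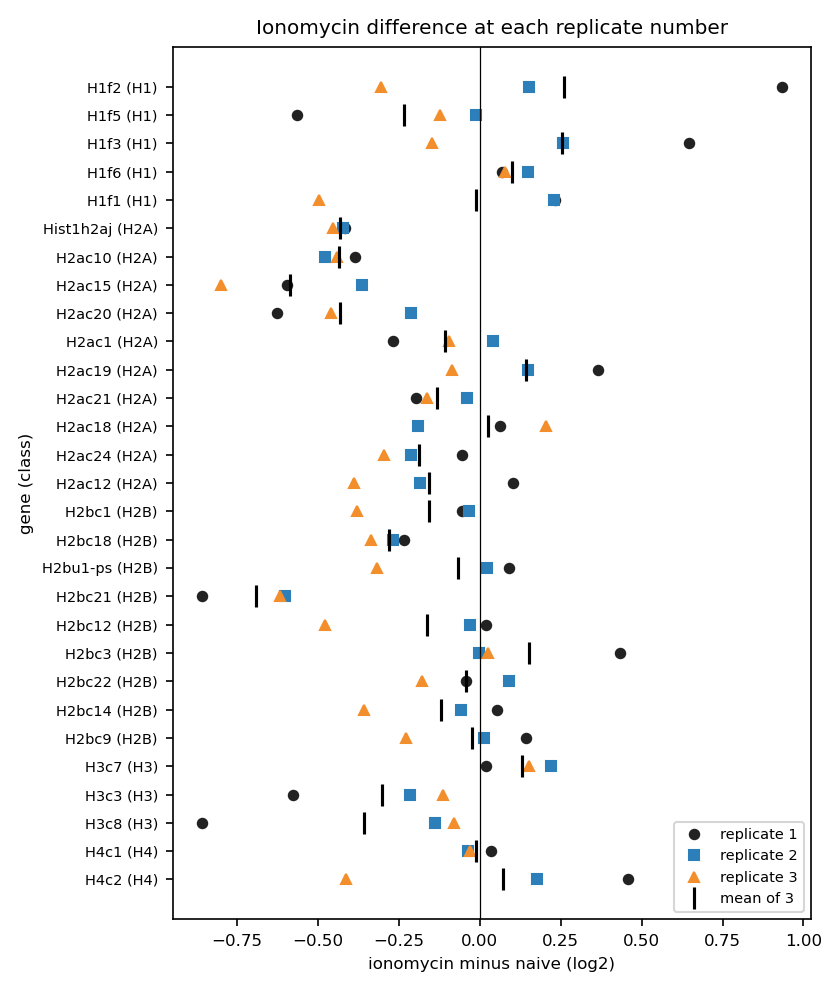
Ionomycin minus naive log2 difference (horizontal axis) of each member (vertical axis), 1 point for each of replicate numbers 1, 2 and 3. H2bc21 lies between -0.86 and -0.60 at every number, while H1f2 runs from 0.93 at number 1 to -0.31 at number 3.

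H2bc21, an H2B gene of the Hist2 cluster and a member by its name alone, had the largest difference. Its log2 signals were 9.02, 8.26 and 8.26 in naive replicates 1, 2 and 3, and 8.16, 7.66 and 7.64 in the ionomycin replicates. Every ionomycin array lay below every naive array, and H2bc21 was the only member of which this held (7.31% of all genes; 0 members against 18.9% in the other direction). Its means were 8.51 ± 0.44 and 7.82 ± 0.29 (SD, n = 3 each), a difference of -0.69 ± 0.25 (SE), with an adjusted p of 0.284 in limma. Without both replicate 1 arrays the difference was -0.61, with an adjusted p of 0.0126 in limma over the 4 remaining arrays. Replicate 1 was singled out with earlier results of these data known, which limits every p-value from fits that set it apart.

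Among H2A genes, Hist1h2aj and H2ac10 differed by nearly the same amount at each replicate number. Hist1h2aj had signals of 13.80, 12.26 and 12.23 in naive replicates 1 to 3, and 13.39, 11.84 and 11.77 in ionomycin replicates 1 to 3. The groups overlapped because both replicate 1 arrays were far above the rest, yet each ionomycin array was below the naive array of its number, by -0.42, -0.42 and -0.45. The difference of means was -0.43 ± 0.59 (SE, adjusted p = 0.724 in limma), and -0.43 ± 0.05 with the replicate block (adjusted p = 0.0601 in limma). H2ac10 had 13.58, 11.96 and 11.87 in naive cells and 13.20, 11.48 and 11.43 after ionomycin, a difference of -0.44 ± 0.64 (SE, adjusted p = 0.743 in limma). Its differences at numbers 1 to 3 were -0.39, -0.48 and -0.44, and with the block limma gave an adjusted p of 0.0653. Without both replicate 1 arrays the differences were -0.44 for Hist1h2aj and -0.46 for H2ac10, with adjusted p-values in limma of 0.0331 and 0.0343. Leaving those arrays out gave 3 members lower (H2bc21, Hist1h2aj and H2ac10) and 0 higher, against 1.43% of all genes lower and 1.41% higher.

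Other fits also gave a few members lower and 0 higher. A 2-level block, replicate 1 against replicates 2 and 3, called 4 lower in limma: H2ac10, H2ac15, H2bc21 and Hist1h2aj (2.47% of all genes were lower and 2.25% higher). Array weights, which give less weight to arrays that scatter more, called H2bc21 alone (5.5% lower and 7.45% higher). The replicate block together with centring of the arrays called 3 (0.422% lower and 0.462% higher), with quantile normalization 1 (0.253% and 0.485%), and without both replicate 1 arrays 1 (0.468% and 0.711%). H2bc21 was among the genes called in each of these fits. Such calls were not confined to members. The 2-level block also called genes of the related lists described below lower. Npat (adjusted p = 0.0497), Mcm3 (adjusted p = 0.0411) and Top2a (adjusted p = 0.0127 in limma) were among them.

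H2ac15 showed wider differences over a similar pattern. Its signals were 10.42, 8.21 and 8.34 in naive replicates 1 to 3, and 9.83, 7.84 and 7.54 after ionomycin. Replicate 1 of each group was about 2 log2 units above its partners, so the groups overlapped, and the difference was -0.59 ± 0.81 (SE, adjusted p = 0.726 in limma). Without both replicate 1 arrays it was -0.58 (adjusted p = 0.0719 in limma). H2ac20, an H2A gene of the Hist2 cluster, had 9.79, 8.39 and 8.36 in naive cells and 9.16, 8.18 and 7.90 after ionomycin. Its difference was -0.43 ± 0.49 (SE, adjusted p = 0.662 in limma), again with overlapping groups, and -0.34 without both replicate 1 arrays (adjusted p = 0.151 in limma). The H2bc18 difference was -0.28 (adjusted p = 0.824 in limma), and -0.30 without both replicate 1 arrays (adjusted p = 0.113 in limma). That of H2bc1, an H2B gene known from testis, was -0.16 (adjusted p = 0.842 in limma), and -0.21 without them (adjusted p = 0.301 in limma).

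The members with the highest positive differences were linker histone genes. H1f2, which encodes H1.2, had signals of 11.44, 11.40 and 11.84 in naive replicates 1 to 3, and 12.38, 11.55 and 11.54 after ionomycin. Ionomycin replicate 1 alone stood above every naive array. The difference was 0.26 ± 0.25 (SE, adjusted p = 0.612 in limma), and -0.077 without both replicate 1 arrays. H1f3, which encodes H1.3, had 6.90, 6.14 and 6.47 in naive cells and 7.55, 6.40 and 6.32 after ionomycin, with a difference of 0.25 ± 0.36 (SE, adjusted p = 0.736 in limma). Its groups overlapped too, and without both replicate 1 arrays the difference was 0.055. H2bc3 (0.15) and H2ac19 (0.14) were next, with adjusted p-values of 0.861 and 0.460 in limma.

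The members differed more between replicate 1 and its partners than between the groups. The values here are a description without a test, since a single array stands against 2 in each group. In naive cells 26 of 29 members were higher in replicate 1 than in both other replicates (27.8% of all genes were), and in ionomycin cells 28 of 29 (33.3%). In both groups at once it was 26 of 29 (18.2%), and 0 members were below both others in both groups (34.1%). The median replicate 1 excess, replicate 1 minus the mean of replicates 2 and 3, was 0.83 in naive and 1.04 in ionomycin cells, or factors of 1.78 and 2.05. Over all genes it was -0.07 and -0.03. An excess of at least 2-fold was found for 11 members in naive cells (1.69% of all genes) and 16 in ionomycin cells (1.26%). Those at least 2-fold higher in both groups were 11 (0.801%): H1f1, H1f5, Hist1h2aj, H2ac10, H2ac15, H2ac20, H2bc12, H2bc18, H2bc22, H3c3 and H3c8. Of these, H1f1, H3c3 and H3c8 had 6-array means below background.

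**Figure D2:**
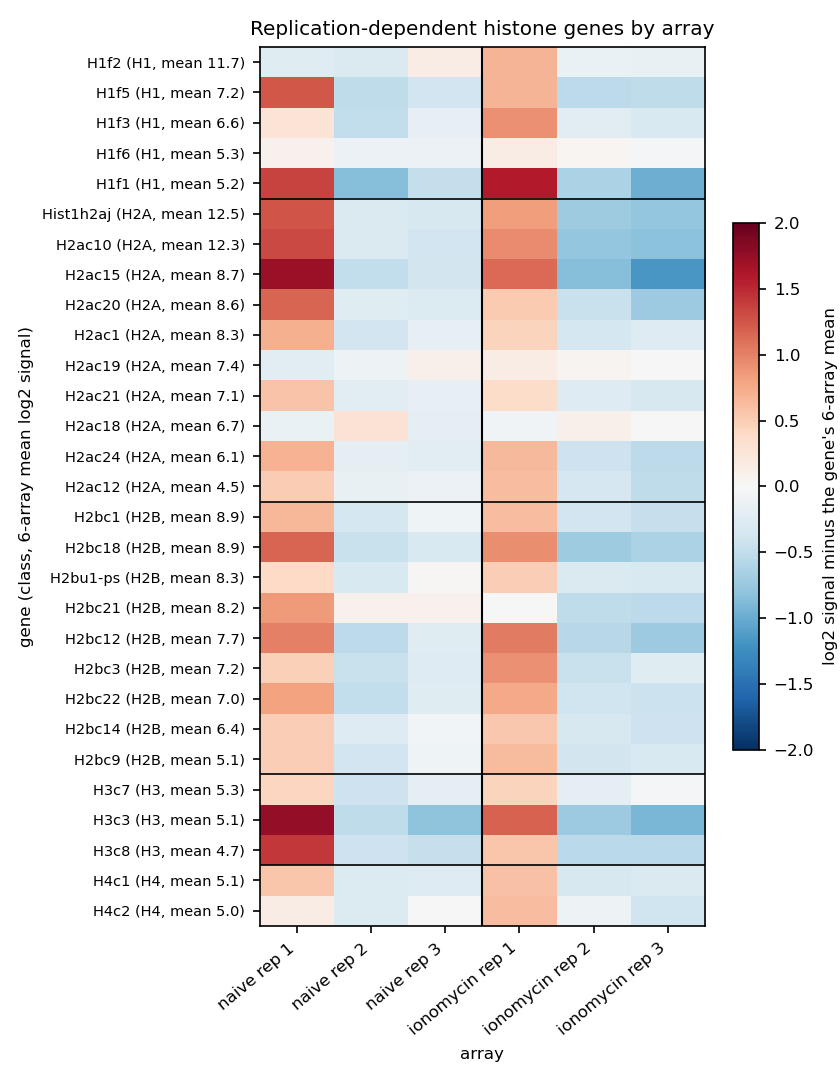
Heat map of the 29 members (rows, by class, with the 6-array mean in brackets) over the 6 arrays (columns); colour gives the log2 signal minus the gene's 6-array mean. The replicate 1 columns of both groups are raised for nearly every row, and H2ac18 and H2ac19 are the plainest departures.

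The excess ran through every class. Its medians in naive and ionomycin cells were 0.59 and 1.18 for H1, 0.95 and 1.07 for H2A, 0.83 and 1.04 for H2B, 1.84 and 1.09 for H3, and 0.56 and 0.88 for H4, the H3 and H4 members all having means below background. All 9 H2B, 3 H3 and 2 H4 members were higher in replicate 1 than in both partners in both groups, as were 8 of 10 H2A and 4 of 5 H1 members. Hist1 members had medians of 0.90 and 1.10, and the 6 Hist2 members 0.76 and 0.58. The 20 members above background had medians of 0.90 and 1.11, and the 9 below it 0.73 and 0.98.

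Among members above background, H2ac15 had the widest gap, and H3c3 and H1f1, below background, also stood out. H3c3, an H3 gene, had 6.86 in naive replicate 1 against 4.60 and 4.31 in its partners, and 6.29 in ionomycin replicate 1 against 4.39 and 4.19, so replicate 1 was above background while its partners were well under it. H1f1, which encodes H1.1, had 6.58 against 4.37 and 4.75 in naive cells and 6.81 against 4.60 and 4.26 after ionomycin. The partner arrays of both genes lay under background, so the size of their excess is not measured well. The excess of H2ac15 was 2.15 and 2.14, factors of 4.44 and 4.40, and those of H2ac10 (1.67 and 1.74) and H2bc18 (1.55 and 1.62) were also close.

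**Figure D3:**
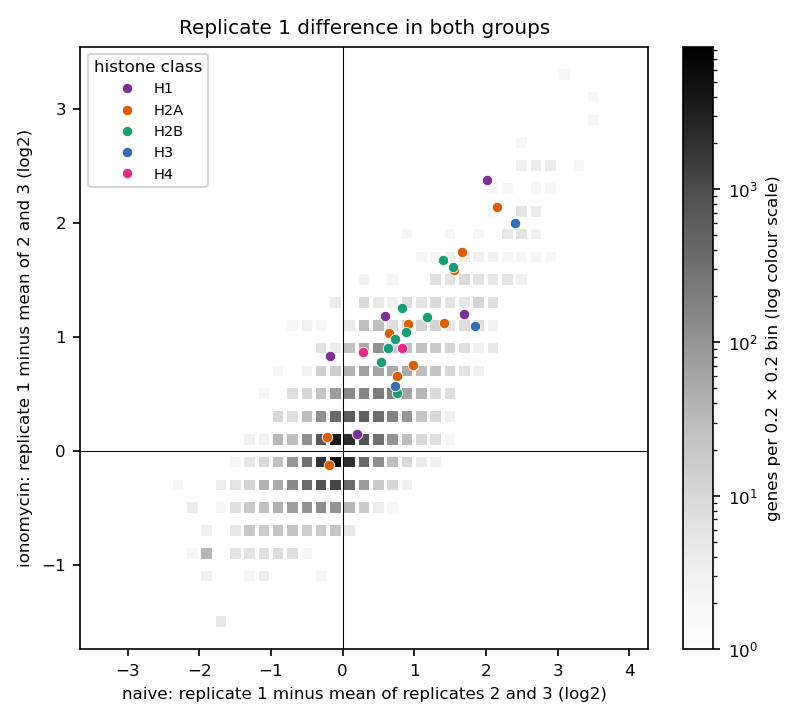
Replicate 1 minus the mean of replicates 2 and 3 (log2) in naive (horizontal) and ionomycin cells (vertical); shading gives the number of all genes per bin and coloured points are members by class. Most members lie in the upper right, from near 0 up to 2.41 and 2.38, while the bulk of genes sits around 0.

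H1f2, H2ac18 and H2ac19 departed from the pattern. H1f2 itself had a naive excess of -0.18 and an ionomycin excess of 0.83. H2ac18, an H2A gene of the Hist2 cluster, had 6.52, 6.94 and 6.46 in naive cells and 6.58, 6.75 and 6.67 after ionomycin, with excesses of -0.19 and -0.13. In neither group was its replicate 1 the highest array. H2ac19, its close paralog in the same cluster, had 7.21, 7.33 and 7.53 in naive cells and 7.58, 7.48 and 7.44 after ionomycin, with excesses of -0.22 and 0.12. H1f6, the testis H1 gene, was below background and had a small excess of 0.19 and 0.15. The testis members H2ac1 and H2bc1 did not share this, with 0.99 and 0.75 for H2ac1 and 0.89 and 1.04 for H2bc1.

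**Figure D4:**
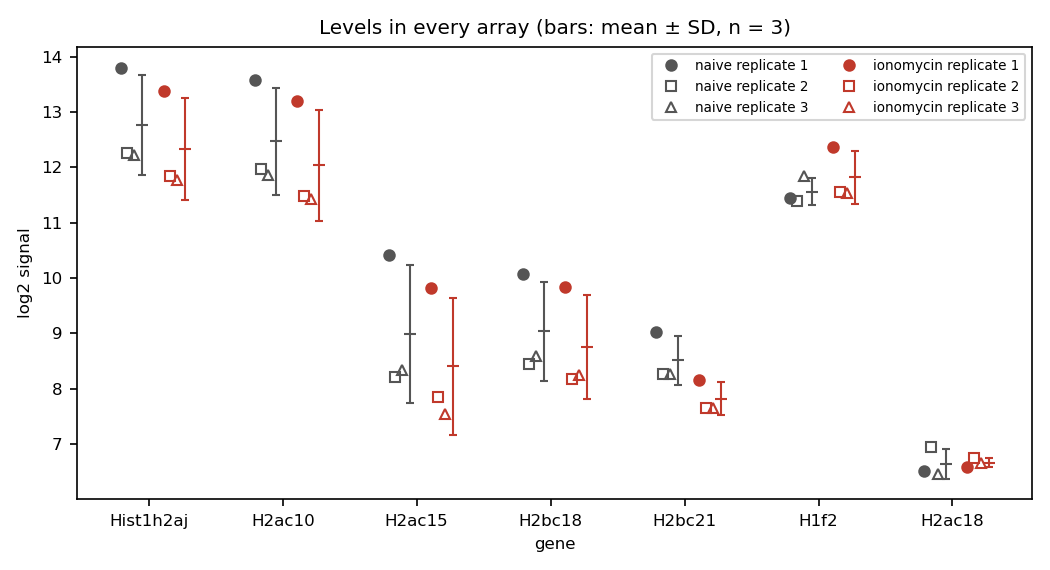
Log2 signal (vertical axis) of 7 members (horizontal axis) in each of the 6 arrays, with bars for the mean ± SD of 3 arrays per group. Hist1h2aj, H2ac10, H2ac15 and H2bc18 each have 1 array per group far above the rest, H2bc21 has separate groups, and H2ac18 stays between 6.46 and 6.94.

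Replicates 2 and 3 differed much less. Replicate 3 minus replicate 2 had a member median of 0.15 in naive cells, with 22 of 29 members higher in replicate 3 (50.7% of all genes), and -0.07 in ionomycin cells, with 8 of 29 higher (48.3%). In naive cells all 5 H1 members (median 0.33), all 9 H2B members (median 0.25) and 2 of 2 H4 members (median 0.15) were higher in replicate 3. Of the H2A members 5 of 10 were (median -0.0025), and of the H3 members 1 of 3 (median -0.06).

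Rows that named several genes at once were kept out of the members, since no single gene can be assigned to them. Among these, 36 named only replication-dependent histones. Their median difference after ionomycin was -0.14, with 28 of 36 below 0 and 0 called by limma without the block (0 at an unadjusted p under 0.05). Replicate 1 was above both partners in both groups in 34 of 36, with medians of 1.11 and 1.38. The 10 H4 rows among them, a class with 2 members of its own, had medians of 0.80 and 1.22.

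Genes that serve the histone genes had smaller replicate 1 medians. The list for histone mRNA processing and transcription had 22 of 25 genes measured, with a median excess of 0.31 and 0.12 and 13 of 22 above both partners in both groups. Slbp, for stem-loop binding protein, had 8.63, 7.66 and 7.63 in naive cells and 7.87, 7.47 and 7.47 after ionomycin. Its replicate 1 was the highest array of each group, but the excess was 0.98 in naive and 0.40 in ionomycin cells. Npat, for the activator NPAT, had 9.63, 9.32 and 9.38 in naive cells and 8.94, 9.05 and 9.03 after ionomycin, with no overlap between groups. The ionomycin arrays all lay below the naive arrays for 6 of the 22 genes (7.31% of all genes). For 0 of them they all lay above (18.9%). The difference of Npat was -0.44 ± 0.09 (SE, adjusted p = 0.142 in limma), while that of Slbp was -0.37 ± 0.29 (SE, adjusted p = 0.522 in limma). Limma called 0 of the 22 in either direction, with and without the replicate block. The 2-level block called Npat (adjusted p = 0.0497 in limma) and Cpsf2 (adjusted p = 0.0499 in limma) lower. Before adjustment, 5 of the 22 were lower with p under 0.05 without the replicate block (5.45% of all genes) and 7 with it (9.42%). In either of these fits 0 were higher.

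Histone chaperones, which carry histone proteins to DNA, had 20 of 23 genes measured, and 18 were above both partners in both groups, with medians of 0.55 and 0.32. Limma called 0 of these 20 with and without the block. Before adjustment, 0 had p under 0.05 in limma without the block (5.45% of all genes lower and 10.2% higher). With it, 5 were lower (9.42% of all genes) and 1 was higher (16%). Replacement histones had 8 of 11 measured and smaller medians of 0.08 and 0.26, with 6 of 8 above both partners in both groups. H2ax, whose product marks broken DNA and whose mRNA can also end in a stem-loop, stood out among them, with excesses of 1.71 and 1.51. H2az1, for H2A.Z, had 0.27 and 0.50. Limma called 0 of these 8 in either fit. Unadjusted p-values under 0.05 numbered 0 without the block and 1, lower, with it (9.42% of all genes were lower).

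Genes of DNA synthesis and division carried the replicate 1 excess too. All 32 measured S phase genes (of 34) were above both partners in both groups, with medians of 1.78 and 1.30, and so were all 19 measured mitotic genes (of 20), with medians of 2.68 and 2.09. Pcna, the sliding clamp of DNA polymerase, had excesses of 1.20 and 0.98, and Mcm3, part of the replicative helicase, 1.82 and 1.31. Mki67, a marker of dividing cells, had 3.09 and 3.24. After ionomycin limma called 0 of the 32 S phase genes, with and without the block, and 0 of the 19 mitotic genes without it. Before adjustment, 0 genes of either list had p under 0.05 in limma without the block (5.45% of all genes lower and 10.2% higher). With it, 15 S phase and 14 mitotic genes were lower (9.42% of all genes) and 1 of each list was higher (16%). With the block limma called 3 mitotic genes lower (0.11% of all genes were). They were Kif11 by -1.02 (adjusted p = 0.0231), Mki67 by -0.90 (adjusted p = 0.0372) and Top2a by -0.77 (adjusted p = 0.0330). Without both replicate 1 arrays and without the block, limma gave Kif11 -1.06 (adjusted p = 0.0375), Top2a -0.81 (adjusted p = 0.0222) and Mki67 -0.94, whose call was lost (adjusted p = 0.0788). Calls in that fit also went up. Limma called the mitotic gene Cdc20 higher by 0.50 (adjusted p = 0.0334) and the S phase gene Ccne2 higher by 0.65 (adjusted p = 0.0207). The part of these differences in dividing cells in the histone values was not tested, and in bulk RNA more cells expressing a gene and more RNA per cell cannot be told apart.

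Mast cell markers had medians near 0. Their median excess was -0.04 in naive and 0.03 in ionomycin cells, and 3 of 10 were above both partners in both groups and 1 was below both. Single mast cell markers ran from -0.86 to 0.39 in naive cells and from -0.50 to 0.33 in ionomycin cells. The 39 markers of other cell types had medians of -0.03 and -0.04, with 5 above both partners in both groups and 16 below both. They were not all alike. The basophil protease genes Mcpt8 (1.24 and 1.48) and Prss34 (1.54 and 1.98) were at least 2-fold higher in replicate 1 in both groups, while the other basophil markers ran from -0.86 to 0.14 in naive cells and from -0.87 to -0.02 in ionomycin cells. Cd68, a macrophage marker, went the other way (-1.44 and -0.75). The 7 measured macrophage and monocyte markers together had medians of 0.27 and 0.05. Of these 7, 1 was above both partners in both groups and 1 was below both. The part of these cells in the histone excess was not tested. Kit, the receptor for stem cell factor, had excesses of 0.16 and -0.33, and Cpa3, a mast cell protease, 0.06 and 0.03.

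**Figure D5:**
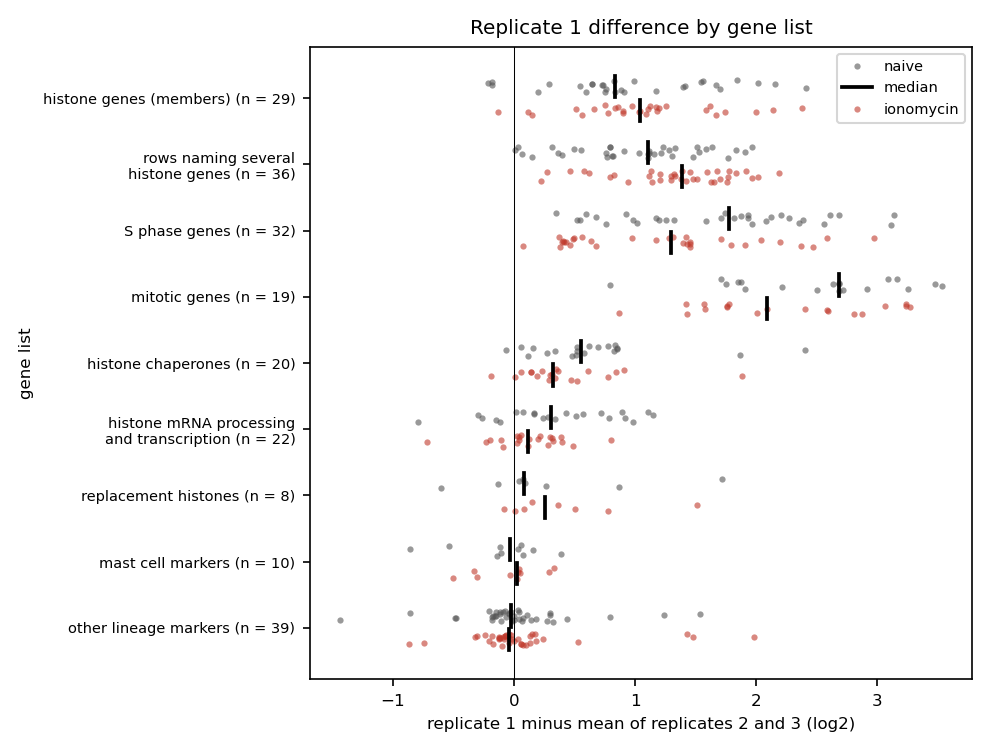
Replicate 1 minus the mean of replicates 2 and 3 (log2, horizontal axis) for each gene of the lists named on the vertical axis, with naive and ionomycin cells in separate colours. Histone members and S phase and mitotic genes lie mostly above 0, while mast cell and other markers mostly spread around 0, with a few on either side.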

How the data were processed

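Total RNA from 6 BMMC samples was biotin-labelled with a whole-transcript kit and hybridised to Affymetrix arrays, per the labels. The values are the authors' processed log2 signals as deposited, 65770 rows with 0 values missing, from 3.01 to 14.6; the log2 scale was read from that range. The submitters' processing notes name oligo as the tool. Its version, and how probes were summarised and arrays normalized, is not given in the sources used here, nor the build. The platform annotation gave 30439 rows 1 symbol, 2146 several and 33185 none; 22786 rows matched RefSeq genes of assembly GRCm38.p6 and 837 symbols were updated. The brightest row stood for each of 255 genes with several. No pair of arrays held identical values. The number of arrays limits the precision.

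Groups were compared in limma 3.58.1 (lmFit and eBayes, two-sided, no block). R was 4.3.3 and the data.table package 1.17.8. The fits were also run on simulated data whose replicate 1 effects were mostly smaller than those of the members. That run therefore does not speak for the members. Deviations from group means correlated at 0.711, 0.476 and 0.469 between same-numbered arrays of the 2 groups (titles give the numbers). Between replicates 2 and 3 of different groups the correlations were 0.481 and 0.524. These values set only replicate 1 apart and do not show that numbers 2 and 3 pair samples. The labels state no pairing. Alternatives were the replicate block, arrays left out, normalizations, variance models, rows and filters.

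Named were, per class, the 4 brightest members; the 4 largest differences each way and the 3 largest replicate 1 excesses and deficits above background; any member past the threshold; the testis members; from each related list genes past the threshold and the 2 brightest; and Slbp, Npat, Kit, Fcer1a and Cpa3. Kif11, Top2a, Cdc20, Ccne2, Cpsf2, Mcpt8, Prss34 and Cd68, members that depart from a pattern, and other members listed in counts were named after their values were seen. The members and lists were chosen with earlier results of these data known. RefSeq promoters were matched by gene ID.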

Additional observations from a re-analysis of the deposited data

How the results depend on the processing

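The count of members higher after ionomycin was 0 in limma under every alternative run. The count lower was 0 with the replicate block, 4 with a 2-level block, 3 without both replicate 1 arrays and 1 with array weights. Of settings chosen after seeing the data, the replicate block gave 3 with centring, 1 with quantile normalization and 1 without both replicate 1 arrays. Replicate 1 was itself singled out with earlier results of these data known. The 2-level block and the fit without both replicate 1 arrays carry that limit too. The replicate block changed no call among members; it added Mki67 among the named genes of the related lists. The adjusted p of H2bc21 ran down to 0.0099.

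The member median of the ionomycin difference was -0.44 without ionomycin replicate 1 and 0.17 without naive replicate 1 with both values from an unbalanced set of arrays. It was -0.19 after centring and -0.12 after quantile normalization, with all genes at -0.01 and 0.01. The replicate 1 excess in ionomycin cells was 1.11 after centring, 1.11 above background, 1.11 without testis members and pseudogenes, 1.38 in rows naming several histone genes, and 1.00 to 1.09 without 1 of its other arrays; in naive cells those rows gave 1.11.

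Signs turned without both replicate 1 arrays, with or without the block, for H1f2 (-0.077), H4c2 (-0.12) and Ube2c (0.0032). They turned for H2ac18 after quantile normalization (-0.052) and centring (-0.041), each also with the block, and with array weights (-0.11). Array weights turned H2ac1 (0.018), Ube2c (0.036) and Cpa3 (0.038). Centring turned Ybx1 (-0.025) and Npm1 (-0.053), and quantile normalization Npm1 (-0.037), with or without the block. Leaving out 1 array at a time, the lowest and highest differences were -0.017 and 0.40 for H1f2, -0.63 and 0.33 for H1f5, -0.14 and 0.47 for H1f3, -0.96 and 0.088 for Hist1h2aj, -1.01 and 0.12 for H2ac10, -1.30 and 0.13 for H2ac15, -0.81 and 0.038 for H2ac20, -0.50 and 0.14 for H2bc1, -0.82 and 0.24 for H2bc18, -0.33 and 0.11 for H2bu1-ps, -0.058 and 0.37 for H3c7, -0.97 and 0.50 for H3c3, -0.72 and 0.26 for H3c8, -0.31 and 0.27 for H4c1, -0.22 and 0.29 for H4c2, -0.27 and 0.43 for H2bc3, -0.065 and 0.18 for H2ac18, and -0.36 and 0.22 for H2ac1. They were -0.22 and 0.042 for H2az1, -0.80 and 0.28 for H2ax, -0.063 and 0.15 for Ybx1, -0.071 and 0.10 for Npm1, -0.0068 and 0.72 for Pcna, -1.97 and 0.14 for Mki67, and -0.62 and 0.59 for Ube2c. Why these values moved was not tested beyond which arrays were left out. With 3 arrays a group and close paralogs, small differences and the source of a row's signal stay uncertain.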
